A study of Mus musculus with 6 samples.

Results

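T-box genes encode transcription factors that bind DNA through a shared domain, the T-box, and in mammals they pattern the heart, limbs, palate and pharyngeal arches. The 8 genes described here, Tbx2, Tbx3, Tbx4, Tbx5, Tbx15, Tbx18, Tbx20 and Tbx22, were picked by gene symbol from the 21827 genes listed for each library. All 8 symbols were found once, and the other 9 T-box genes in the files were read alongside them to rank the family by level. In the arches, Tbx2 and Tbx3 are closely related repressors that respond to BMP signals, and Tbx22 is a repressor of the palate and tongue region whose human counterpart is mutated in X-linked cleft palate with ankyloglossia. BMP4 from the distal arch, the homeobox factors Msx1 and Msx2 and the bHLH factor Hand2 act in the same tissue, the distal mandible, which is the tip of the embryonic lower jaw.

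Polyadenylated RNA was sequenced from distal mandibles of mouse embryos at E10.75, 1 embryo per library. Each of 3 litters gave 1 library labelled mutant, Msx1f/f;Msx2f/f;Rosa26mTmG/+;Hand2-Cre, and 1 labelled control, Msx1f/+;Msx2f/f;Rosa26mTmG/+;Hand2-Cre. Both labels therefore carry 2 floxed Msx2 alleles, the Hand2-Cre driver and 1 Rosa26 mTmG reporter allele, which turns recombined cells green, and no embryo had intact Msx genes. Cre acts where Hand2 sequence drives it, and whole green distal mandibles were dissected rather than sorted cells, so each library also holds RNA of epithelium, vessels and blood. Every level is in TPM, an abundance corrected for transcript length that is defined to sum to the same total in each library. The listed genes hold differing parts of that total, from 716208 to 735601 TPM.

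The targeted gene disagreed with the labels. In litter 1, Msx1 reached 1.90 TPM under the mutant label and 84.1 TPM under the control label. Litters 2 and 3 had the opposite order, with 78.8 and 73.3 TPM under the mutant label and 2.61 and 1.99 TPM under the control label. Each litter thus held 1 library with Msx1 under 10 TPM, called the low-Msx1 library below, and 1 over 50 TPM, called the high-Msx1 library. The low-Msx1 libraries are those labelled mutant in litter 1 and control in litters 2 and 3. Because a measured level and not a label makes this split, differences along it are described litter by litter, with no mean and no test. Msx2 was at 4.22, 6.81 and 6.28 TPM in the low-Msx1 libraries of litters 1, 2 and 3 and at 9.62, 6.81 and 6.30 TPM in their high-Msx1 littermates.

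The tissue label was checked against markers. All 8 genes of arch mesenchyme (Prrx1, Prrx2, Twist1, Dlx5, Dlx6, Hand2, Alx1 and Pdgfra) were kept, with a summed level of 980 to 1066 TPM. Hox genes of more posterior arches summed to 0.58 to 1.25 TPM over 5 genes. Red blood cell markers summed to 20835 TPM in the low-Msx1 library of litter 1 and to 6405 to 9055 TPM in the other 5. Summed levels of the other markers ranged from 106 to 121 TPM for epithelium, 67.4 to 80.7 TPM for endothelium, 18.9 to 24.3 TPM for muscle progenitors and core mesoderm, 12.2 to 16.3 TPM for neurons and 5.23 to 7.21 TPM for pharyngeal endoderm.

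Promoter sequence is shown for Tbx22 and Tbx4, which are the 2 genes of the set above 1 TPM that the RefSeq promoter table (GRCm38.p6) holds. Tbx18 and Tbx20 are also in the table. Each run gives the 250 bases before an annotated start on the plus strand, chrX:107667714-107667963 for the first of 3 Tbx22 starts and chr11:85896515-85896764 for Tbx4. Capitals mark a match, on either strand, to 1 of 3 motifs that do not overlap one another here: TAATTG, a core bound by Msx-type homeodomains, AGGTGTGA, the core element that T-box factors bind, and CATCTG, an E-box bound by bHLH factors.
Tbx22: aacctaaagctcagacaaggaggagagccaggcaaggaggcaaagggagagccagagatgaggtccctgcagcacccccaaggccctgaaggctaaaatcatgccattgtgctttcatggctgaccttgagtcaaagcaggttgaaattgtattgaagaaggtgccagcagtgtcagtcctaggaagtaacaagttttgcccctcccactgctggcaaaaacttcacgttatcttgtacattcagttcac
Tbx4: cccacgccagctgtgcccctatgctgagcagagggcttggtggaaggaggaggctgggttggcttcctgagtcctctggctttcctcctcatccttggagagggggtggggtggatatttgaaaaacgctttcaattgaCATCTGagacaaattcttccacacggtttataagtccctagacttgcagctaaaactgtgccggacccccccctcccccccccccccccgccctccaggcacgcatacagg
The Tbx22 run holds none of the 3 motifs, and neither do the runs before its other 2 starts. The Tbx4 run holds CATCTG once. Over the same window of 32851 promoters, TAATTG was found in 7.17%, AGGTGTGA in 1.12% and CATCTG in 14.4%. A match to letters is not evidence of binding.

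The family fell into a steep order of levels, headed by Tbx3, the maximum in all 6 libraries. Tbx3 was at 33.4, 30.5 and 43.2 TPM in the low-Msx1 libraries of litters 1 to 3 and at 41.1, 36.4 and 45.1 TPM in their high-Msx1 littermates, a mean of 38.3 ± 5.78 TPM (SD, n = 6). Tbx2 was at 21.5, 17.0 and 28.6 TPM in the low-Msx1 libraries and at 23.0, 25.1 and 36.1 TPM in the high-Msx1 libraries, with a mean of 25.2 ± 6.56 TPM (SD, n = 6). Both genes were highest in litter 3, whose littermates averaged 44.2 TPM for Tbx3 and 32.3 TPM for Tbx2. Litters 1 and 2 averaged 37.2 and 33.5 TPM for Tbx3 and 22.3 and 21.1 TPM for Tbx2. Between these paralogs stood Mga, which encodes a Max partner with both a T-box and a bHLH zipper domain, at 28.8 to 33.4 TPM. Mga lay below Tbx3 in 6 of 6 libraries and above Tbx2 in 5 of 6, but its range overlapped both of theirs.

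Tbx22 ranked 4 in every library. It was at 13.2, 10.5 and 12.2 TPM in the low-Msx1 libraries of litters 1 to 3 and at 10.68, 8.56 and 10.12 TPM in the high-Msx1 libraries, a mean of 10.9 ± 1.64 TPM (SD, n = 6). Its highest library stayed under the lowest Tbx2 value, so those ranges did not overlap. Next came Tbx1 and Tbx4, whose ranges overlapped and whose order was split 3 libraries to 3. Tbx4, a hindlimb and lung gene, was at 2.59, 3.21 and 3.08 TPM in the low-Msx1 libraries and at 3.10, 2.42 and 3.48 TPM in the high-Msx1 libraries, a mean of 2.98 ± 0.40 TPM (SD, n = 6). Together Tbx2 and Tbx3 made up 76.2% to 85.1% of the summed TPM of the 8 genes.

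**Figure D1:**
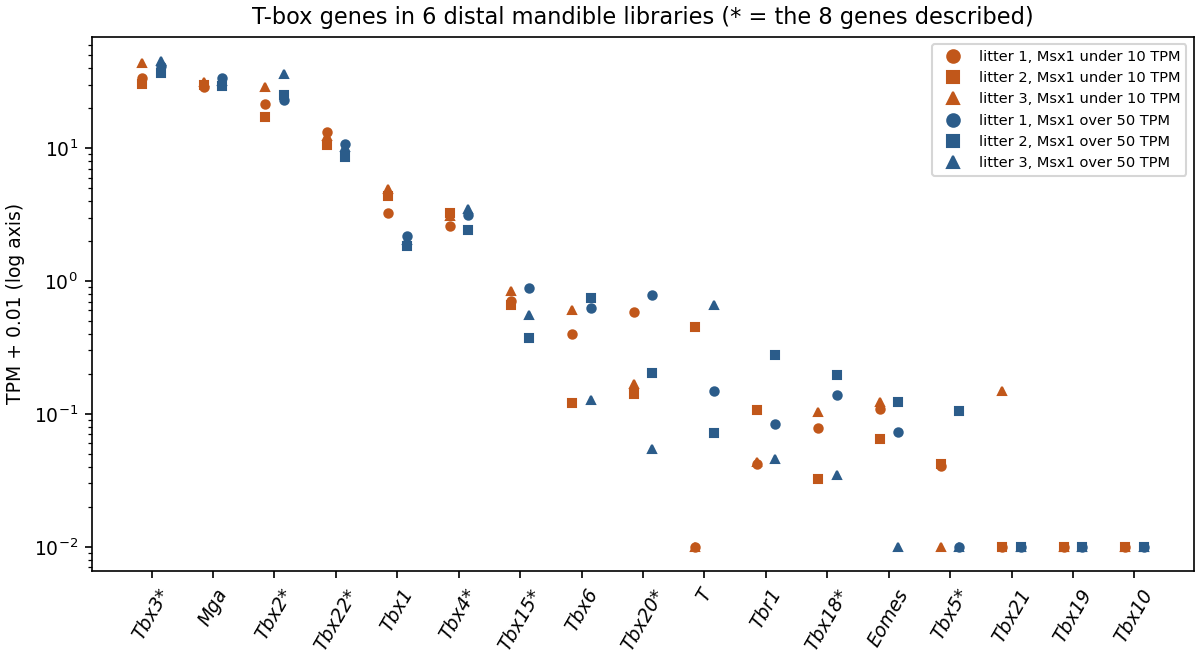
Level of all 17 T-box genes in each of the 6 libraries, as TPM + 0.01 on a log axis, ordered by mean; asterisks mark the 8 genes described, colour gives the Msx1 level and shape the litter. Tbx3, Mga, Tbx2 and Tbx22 lie above 8 TPM in every library, Tbx1 and Tbx4 between 1.84 and 4.88 TPM, and all others below 1 TPM.

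The remaining 4 genes stayed under 1 TPM in every library. Tbx15, a mesenchymal gene of skeleton and skin, was the highest of them at 0.702, 0.650 and 0.826 TPM in the low-Msx1 libraries of litters 1 to 3 and 0.868, 0.364 and 0.549 TPM in the high-Msx1 libraries. Tbx20, a heart gene, was at 0.570 and 0.770 TPM in the low- and high-Msx1 libraries of litter 1 and at 0.0442 to 0.195 TPM in the other 4, so that both high values came from 1 litter. Heart muscle markers summed to 5.85 and 11.0 TPM in the low- and high-Msx1 libraries of litter 1, 7.05 and 6.78 TPM in litter 2 and 2.39 and 4.11 TPM in litter 3. Of these 8 markers only 2, Myl7 and Actc1, were kept. In the high-Msx1 library of litter 1, which had the most Tbx20, Myl7 (5.82 TPM), Actc1 (3.78 TPM) and Myh6 (0.489 TPM) were each at their highest of the 6 libraries, while Nkx2-5, a defining factor of heart muscle, was listed at 0 there and in 2 other libraries. The part of heart tissue in the Tbx20 values was not tested.

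Tbx18, known from the epicardium and somites, was at 0.0224 to 0.185 TPM. Tbx5, the forelimb and heart partner of Tbx4, was listed at 0 in 3 of 6 libraries and did not exceed 0.0959 TPM. The 4 genes Tbx2, Tbx4, Tbx3 and Tbx5 lie in 2 pairs in the genome (GENCODE M21, GRCm38). Tbx2 (ENSMUSG00000000093, chromosome 11, 85832551 to 85841948) and Tbx4 (ENSMUSG00000000094, 85886422 to 85916097) are 44.5 kb apart, whereas Tbx3 (ENSMUSG00000018604, chromosome 5, 119670669 to 119684724) and Tbx5 (ENSMUSG00000018263, 119832668 to 119885219) are 147.9 kb apart. In each pair the first gene was abundant and its neighbour low or nearly unread. Tbx22 (ENSMUSG00000031241) lies on chromosome X, 107667964 to 107688978. Antisense genes overlap Tbx3 (Tbx3os1), Tbx15 (Gm43120) and Tbx18 (D030062O11Rik) in the annotation, and since strand handling is not given in the sources used here, reads of either strand cannot be told apart for these 3.

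Within litters, the 2 abundant paralogs and Tbx22 went opposite ways. Tbx3 and Tbx2 were lower in the low-Msx1 library of all 3 litters, and Tbx22 was higher in all 3. For Tbx3 the difference in log2(TPM + 1), low-Msx1 minus high-Msx1, was -0.29, -0.25 and -0.06 in litters 1 to 3. The values of low- and high-Msx1 libraries overlapped for Tbx3, because litter 3 was high in both. In tissue RNA of this kind, fewer expressing cells and less RNA per cell cannot be told apart.

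For Tbx2 the differences were -0.09, -0.53 and -0.33, again with overlapping ranges. The litter 1 value equals the median of all genes in that litter, which was -0.09, against 0.01 and 0.08 in litters 2 and 3. With libraries rescaled by median-of-ratios factors the Tbx2 differences became 0.005, -0.54 and -0.42, so that its direction in litter 1 flipped, and with quantile normalization they were -0.01, -0.53 and -0.44. Tbx3 kept its sign under both, at -0.19, -0.26 and -0.15 with median-of-ratios scaling. In litters 2 and 3, 4.30% and 11.0% of genes lay below Tbx2, whereas in litter 1 it stood at the median.

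Without rescaling, Tbx22 had the most even differences of the 4 genes kept, 0.28, 0.27 and 0.25 in litters 1 to 3. Rescaling by median-of-ratios factors gave 0.38, 0.26 and 0.16, all still positive but under 0.2 in litter 3. They were then less even than those of Tbx3 (-0.19, -0.26 and -0.15). Quantile normalization gave Tbx22 0.36, 0.26 and 0.17. The groups nearly separated: the lowest low-Msx1 value (10.53 TPM, litter 2) lay just under the highest high-Msx1 value (10.68 TPM, litter 1). In each litter between 71.4% and 88.3% of genes lay below the Tbx22 difference. Tbx4 had no common direction, at -0.19, 0.30 and -0.13.

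**Figure D2:**
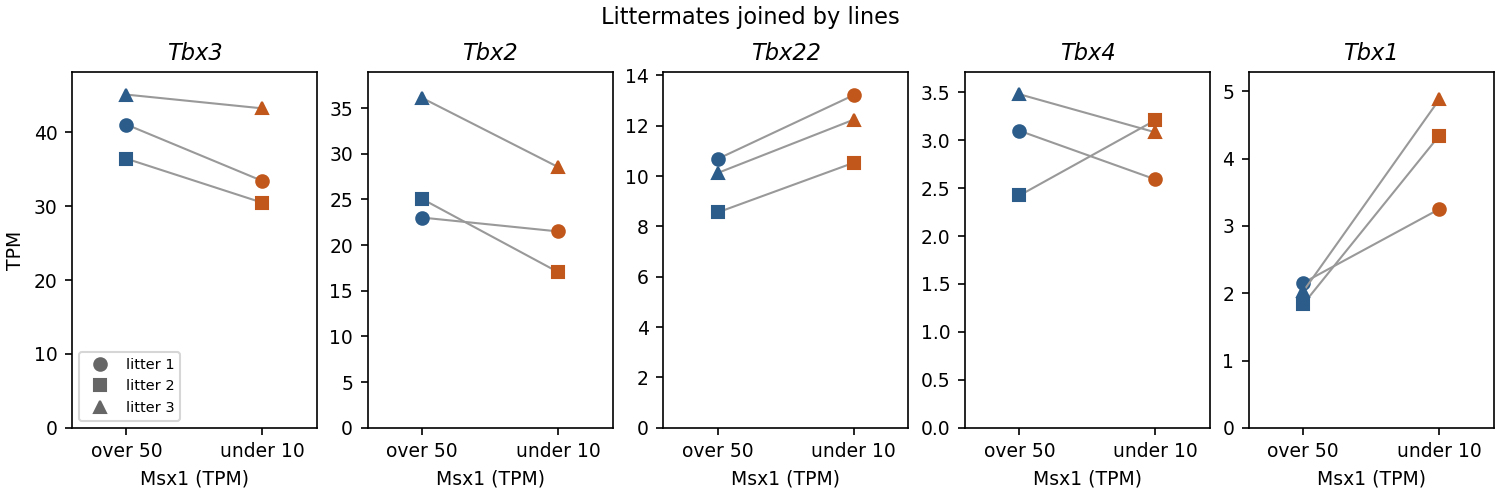
TPM of 5 T-box genes (vertical axis, from 0) in the high-Msx1 and low-Msx1 library of each litter, with littermates joined by a line. Tbx3 and Tbx2 lines slope down and Tbx22 and Tbx1 lines up in all 3 litters, while Tbx4 lines cross.

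These counts were read against the whole table. Among the 8 genes, 4 passed the filter on low values, at least 1 TPM in at least 3 libraries, which kept 12152 genes. Of these 4, 2 were lower in the low-Msx1 library of all 3 litters, as were 11.9% of genes kept, and 1 was higher in all 3, as were 1314 of the genes kept. Counting both directions, 3 of the 4 kept 1 direction over the litters, as did 22.7% of genes kept. Asking for a difference over 0.2 in every litter left 0 lower, against 1.51% of genes kept, and Tbx22 alone higher, against 1.77%. The median difference of the 4 genes was -0.14, 0.01 and -0.10 in litters 1 to 3, beside the all-gene medians of -0.09, 0.01 and 0.08. With so few genes these shares describe Tbx3, Tbx2 and Tbx22 one by one and say nothing of the family as a whole.

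**Figure D3:**
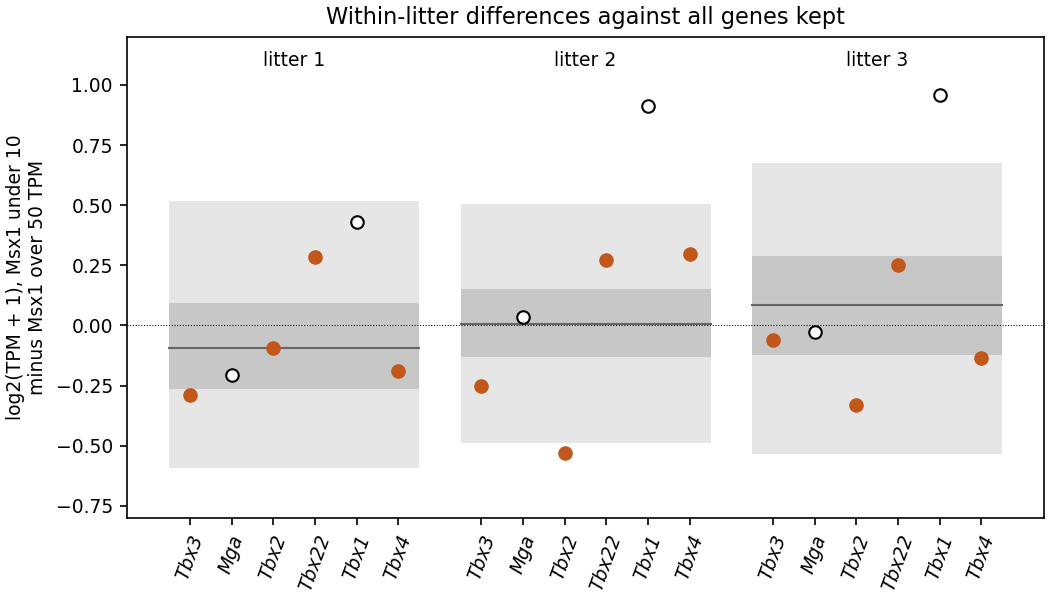
Difference in log2(TPM + 1), low-Msx1 minus high-Msx1 library, for the 6 T-box genes kept (filled, the genes described; open, Mga and Tbx1), against all 12152 genes kept (light band 5th to 95th percentile, dark band 25th to 75th, line median). Tbx22 lies near 0.25 to 0.28 in each litter, and Tbx2 leaves the dark band in litters 2 and 3 only.

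Ratios between genes in the same library do not depend on scaling. The Tbx3 to Tbx22 ratio was 2.53, 2.89 and 3.53 in the low-Msx1 libraries of litters 1 to 3 and 3.84, 4.26 and 4.46 in the high-Msx1 libraries. All low-Msx1 ratios lay below all high-Msx1 ratios. The Tbx2 to Tbx22 ratio was 1.63, 1.62 and 2.33 against 2.15, 2.93 and 3.57, lower in each litter but with overlapping ranges. A lower ratio to Tbx22 in the low-Msx1 library of all 3 litters was common, found for 54.7% of all other genes kept, and for 24.5% the groups did not overlap. Tbx3 to Tbx2 ratios were 1.55, 1.79 and 1.51 against 1.78, 1.45 and 1.25, with no common direction.

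**Figure D4:**
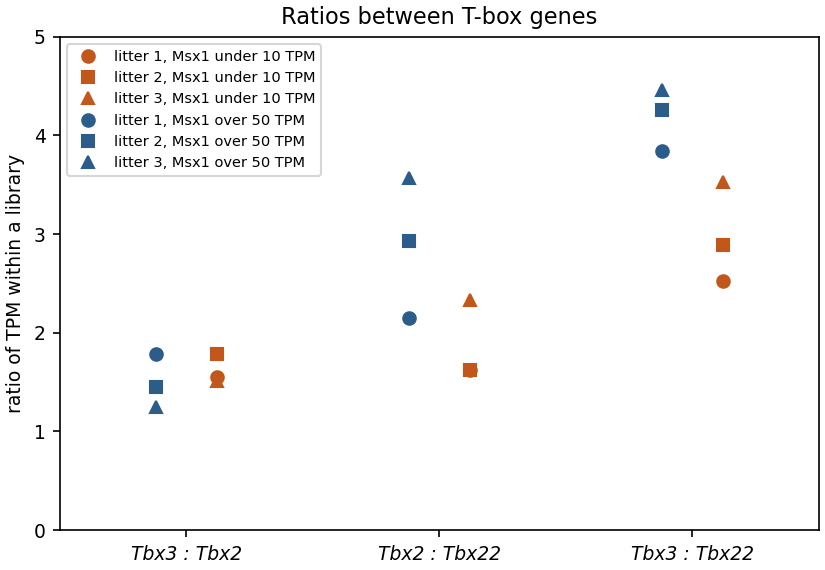
Ratio of TPM between pairs of T-box genes within each library, coloured by Msx1 level and shaped by litter. Tbx3 to Tbx22 ratios run from 2.53 to 3.53 in the low-Msx1 libraries and from 3.84 to 4.46 in the high-Msx1 libraries.

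The authors' deposited table, which does not name its direction, gives the deposited test of these genes. Msx1 is negative there, at -5.19 ± 0.26 (log2 fold change and the table's standard error), so a negative value goes with Msx1. At a threshold of 0.05 on its adjusted p, the authors' deposited table called none of the 8 genes and 0.0961% of the 14572 genes that had one, and 0 of the 8 had an unadjusted p under 0.05, against 1.85% of 17605 genes. Tbx2 was at -0.33 ± 0.20 (unadjusted p = 0.0990) and Tbx3 at -0.20 ± 0.13 (unadjusted p = 0.122) in the authors' deposited table. Tbx22 was at 0.29 ± 0.23 (unadjusted p = 0.192) in the authors' deposited table. These 3 signs are those seen within litters, but the same libraries are behind both, so the match is no independent support. By the deposited labels Msx1 averaged 51.3 TPM (mutant) and 29.6 TPM (control). Its value of -5.19 therefore does not come from a split by those labels.

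Base means in the authors' deposited table, which in DESeq2 output are mean normalized counts over all libraries, show how unequal the evidence is. They were 1206 for Tbx3, 428 for Tbx2, 274 for Tbx22 and 71.7 for Tbx4 in the authors' deposited table. Tbx15 and Tbx20 had 21.3 and 20.1, Tbx18 had 3.66 and Tbx5 had 0.820 in the authors' deposited table. Accordingly, the fold changes of Tbx4 (-0.01 ± 0.42), Tbx15 (0.37 ± 0.75), Tbx20 (0.23 ± 0.83) and Tbx18 (-0.72 ± 1.77) in the authors' deposited table have standard errors larger than the whole fold change of Tbx2. Tbx5 had no adjusted p in the authors' deposited table. Over the 8 genes, the authors' deposited table had 4 negative and 4 positive values and a median of 0.11, beside a median of 0.001 over all genes.

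**Figure D5:**
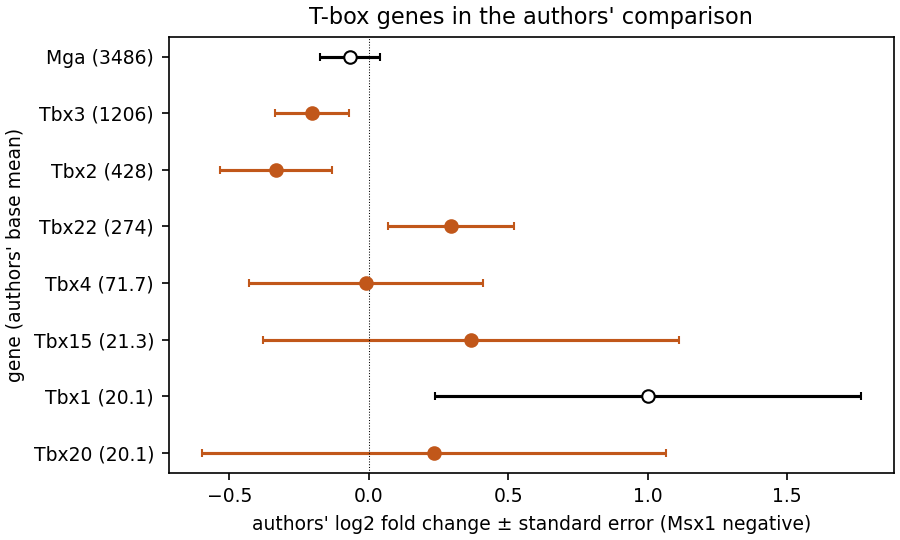
Log2 fold change with its standard error in the authors' deposited table (horizontal axis, Msx1 negative) for T-box genes with a base mean of at least 20, which is given in brackets; filled points are the genes described. Tbx3 and Tbx2 lie at -0.20 and -0.33, Tbx22 at 0.29, and the bars widen as the base mean falls.

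Compared by the deposited labels, which 2 of 3 litters contradict, none of the 4 genes kept passed the test. Limma's moderated test with Benjamini-Hochberg adjustment called 0 of the 4 higher under the mutant label (0% of 12152 genes were) and 0 lower (0% of genes). Each label holds both low- and high-Msx1 libraries. Msx1 itself was not called in this limma fit, at a log2 difference of 1.41 ± 1.95 (SE, adjusted p = 0.887). The fit therefore cannot decide on differences that go with Msx1. At an unadjusted p under 0.05 there were again 0 of the 4, beside 1.9% of genes higher and 4.82% lower. Under the mutant label Tbx3 averaged 38.3 ± 6.07 TPM and under the control label 38.3 ± 6.83 TPM (SD, n = 3 each), and limma put the log2 difference at 0.01 ± 0.16 (SE, adjusted p = 0.995). Tbx2 averaged 27.6 ± 7.62 and 22.9 ± 5.75 TPM (SD, n = 3 each), which limma put at 0.25 ± 0.23 (SE, adjusted p = 0.810). For Tbx22 the means were 10.6 ± 2.37 and 11.2 ± 0.95 TPM (SD, n = 3 each), and limma gave -0.08 ± 0.16 (SE, adjusted p = 0.922). For Tbx4 they were 2.83 ± 0.57 and 3.13 ± 0.07 TPM (SD, n = 3 each), with a limma value of -0.12 ± 0.16 (SE, adjusted p = 0.883).

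Among the 9 other T-box genes, Tbx1 differed most within litters. Tbx1, a regulator of pharyngeal mesoderm and endoderm whose human counterpart lies in the DiGeorge syndrome deletion, was at 3.25, 4.34 and 4.88 TPM in the low-Msx1 libraries of litters 1 to 3 and 2.15, 1.84 and 2.03 TPM in the high-Msx1 libraries. Every low-Msx1 value lay above every high-Msx1 value, as for 4.36% of genes kept, and the differences of 0.43, 0.91 and 0.96 exceeded those of 93.4%, 98.6% and 98.0% of genes. In the authors' deposited table it was at 1.00 ± 0.76 (unadjusted p = 0.190) with a base mean of 20.1, so few reads stand behind its TPM. The 7 markers of muscle progenitors and core mesoderm, Tbx1 included, summed to 20.9, 18.9 and 22.5 TPM in the low-Msx1 libraries of litters 1 to 3 and 20.5, 24.3 and 23.4 TPM in the high-Msx1 libraries, and Msc was listed at 0 in 2 libraries. None of the other 3 kept was higher in all 3 litters. The 7 epithelial markers summed to 106, 108 and 121 TPM against 120, 110 and 114 TPM, with none at 0 in any library. Krt5 was the 1 epithelial marker higher in the low-Msx1 library of all 3 litters, at 6.45, 4.46 and 4.79 TPM against 5.43, 4.01 and 4.06 TPM, and 0 were lower in all 3. Epcam was at 16.8, 22.2 and 20.9 TPM against 21.5, 17.5 and 18.2 TPM, and Krt14 at 5.30, 1.68 and 2.24 TPM against 1.25, 4.17 and 4.43 TPM. By the deposited labels, limma put Krt14 at 1.06 (adjusted p = 0.489) and Epcam at -0.29 (adjusted p = 0.686). These were the 2 epithelial markers with an unadjusted p under 0.05, beside 1.9% of genes higher and 4.82% lower under the mutant label. The part of these cell types in the Tbx1 values was not tested.

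Mga differed little, at -0.21, 0.04 and -0.03 on the log2 scale within litters 1 to 3, and at -0.07 ± 0.11 in the authors' deposited table. Tbx6, of paraxial mesoderm, was at 0.111 to 0.728 TPM, and T (brachyury), of the notochord and primitive streak, at 0 to 0.649 TPM. Tbr1, Eomes and Tbx21 did not exceed 0.266, 0.113 and 0.139 TPM. Tbx10 and Tbx19 were listed at 0 in all 6 libraries.

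Genes that act around the T-box factors were read from 3 lists. Of 12 inducers, 8 were kept, and Bmp4 alone was lower in the low-Msx1 library of all 3 litters, with 43.5, 36.9 and 39.5 TPM against 53.5, 43.5 and 44.3 TPM. That is 1 of 8, or 12.5%, beside 11.9% of all genes kept. Hand2 was at 223, 210.0 and 261 TPM against 253, 251 and 253 TPM, lower in litters 1 and 2 only, but with median-of-ratios scaling it was lower in all 3, so that 2 inducers were. The authors' deposited table had 9 of the 12 inducers negative, none past an unadjusted p of 0.05, beside 8760 negative of all 17605 genes with a p.

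Of 12 cofactors, 11 were kept. In the low-Msx1 library of all 3 litters 2 were lower, Pax3 among them, and 3 higher, the corepressor genes Tle3 and Tle4 among them, beside 11.9% lower and 1314 genes higher of the 12152 kept. Tle1, Hdac1, Hdac2 and Ncor1, also corepressor genes, had no common direction. Median-of-ratios scaling moved Tle3 out of the latter group and Ncor1 and Pax9 into it. Pax3, a paired-box factor of crest and muscle progenitors, was at 1.31, 1.28 and 1.27 TPM against 2.69, 2.56 and 1.74 TPM, with no overlap, and was at -0.84 ± 0.46 (unadjusted p = 0.0685) in the authors' deposited table. Groups with all low-Msx1 values below all high-Msx1 values made up 4.95% of genes kept.

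Of 14 genes named as T-box targets in other tissues, 11 were kept and 6 were lower in the low-Msx1 library of all 3 litters, where 11.9% of all genes kept were. They were the connexin genes Gja1 and Gja5, Ndrg1, the growth factor gene Fgf10, the homeobox gene Alx4 and the ligand gene Wnt5a, and none was higher in all 3. Of the 6 only Gja5 was lower by over 0.2 in every litter, as were 1.51% of genes kept. The smallest differences were -0.011 for Alx4 (litter 2) and -0.034 for Wnt5a (litter 3). With so few genes the count describes these genes one by one. With median-of-ratios scaling the count was again 6 but Wnt5a was no longer among them, where 12.5% of all genes kept were lower. Tbx2 and Tbx3 are known to repress the connexin genes in heart, and Fgf10 is known as a target that Tbx5 and Tbx4 activate in limb buds. Gja5 was at 2.74, 2.88 and 3.10 TPM in the low-Msx1 libraries and 3.59, 7.69 and 7.31 TPM in the high-Msx1 libraries, with no overlap. Its value in the authors' deposited table was -1.02 ± 0.39 (unadjusted p = 0.00849, adjusted p = 1.00), the only target gene there with an unadjusted p under 0.05. Gja5 is also an arterial gene, and endothelial markers summed to 67.4, 71.7 and 75.8 TPM in the low-Msx1 libraries and 71.5, 70.7 and 80.7 TPM in the high-Msx1 libraries, whose part in the Gja5 values was not tested. In the limma fit by the deposited labels 0 genes of the 3 lists were called, with 1 inducer gene (Fgf8) at an unadjusted p under 0.05.

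Genes with profiles like those of Tbx2 and Tbx3 were sought among 8895 other genes with a mean of at least 5 TPM. The measure was the root mean square distance over 6 libraries between values of log2(TPM + 1), each centred on its own mean. Nearest to Tbx2 were Adam22, Tmem59l and H2ac13, at distances of 0.092, 0.117 and 0.125, where a flat profile would lie at 0.324. Tbx3 stood 29th in that order, at 0.170, and Tbx22 at 0.394 lay farther from Tbx2 than a flat profile. Nearest to Tbx3 were Elmod2, Zfp809 and Cyp2s1, at 0.056, 0.057 and 0.061, where a flat profile would lie at 0.198. Tbx2 stood 1204th from Tbx3, so the likeness of the paralogs was not mutual in rank. Both were highest in litter 3, and both were lower in the low-Msx1 library of all 3 litters.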

How the data were processed

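The authors deposited 1 TPM value per gene and library. Salmon 1.5.2, DESeq2 and mm10 appear in the submitters' processing notes, with no role for any of them. Annotation release, strand handling and filters were not stated. The read depth of each library is unknown from TPM, which keep none, so precision is judged from the spread between embryos. Each library's listed genes sum to 716208 to 735601 TPM, and 11929 to 12132 genes reached 1 TPM. The authors' deposited comparison table holds, per the file headers, a base mean (a signal that is never negative), a log2 fold change with its standard error, a Wald score and unadjusted and adjusted p-values, and its model and direction are not stated.

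Labelled groups were compared with limma 3.58.1 in R 4.3.3 (variance trend, robust moderation) on log2(TPM + 1), with a pseudocount of 1, over the 12152 genes that reached 1 TPM in 3 libraries or more, with Benjamini-Hochberg adjustment at 0.05. The fit was also run on simulated data, with results that are not reported here. Fold changes on this scale understate those of low genes. An exact permutation test of 3 against 3 libraries (two-sided) cannot go below p = 0.1, and none was used. Limma p-values set the difference between labels against the spread between embryos within a label, 3 per label, moderated across genes. That spread mixes low- and high-Msx1 libraries. Differences by Msx1 level (under 10 against over 50 TPM) are given per litter.

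The design text ties 1 embryo of each label to each litter, so litter pairs the libraries. Deviations of littermates from their label means had a Pearson r of -0.05, -0.03 and -0.03 across 12152 genes. The genes, lists and tests were chosen with earlier results of these data known. Named were the 8 genes, the other T-box genes, Bmp4, Hand2, Msx1, Msx2, genes of the inducer, cofactor and target lists whose mean reached 1 TPM and whose 3 within-litter differences all passed 0.2 in 1 direction (Pax3 and Gja5), and the 3 genes nearest in profile to each of Tbx2 and Tbx3. Further list genes (Tle3, Tle4, Ncor1, Pax9, Gja1, Ndrg1, Fgf10, Alx4, Wnt5a, Fgf8, Tle1, Hdac1, Hdac2, Myl7, Actc1, Myh6, Nkx2-5, Krt5, Epcam) were named after their values were seen, and some list genes are not reported here. Alternatives were litter as a block, another pseudocount, filters, scalings, moderation, and leaving out libraries or litters.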

Additional observations from a re-analysis of the deposited data

How the results depend on the processing

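By the labels, Tbx2, Tbx3, Tbx4 and Tbx22 stayed uncalled in limma under each of the 13 alternative fits that tested them (12 for Tbx4, whose mean is below 5 TPM), with adjusted p from 0.710 to 0.998. None of these fits can decide on differences that go with Msx1, as all use the labels. The replicate block (litter as a paired term) also called 0 of the 4 and 0 of all genes tested, and gave Tbx2 a log2 difference of 0.25 (adjusted p = 0.789). The sign changed for Tbx3 without the library labelled control of litter 2 (-0.14) or labelled mutant of litter 3 (-0.11), and for Tbx22 without that labelled mutant of litter 2 (0.052). With any 1 library removed, values ran from -0.14 to 0.10 for Tbx3, from -0.23 to 0.052 for Tbx22, from 0.050 (without the litter 3 library labelled mutant) to 0.42 (without that labelled control) for Tbx2, and from -0.24 (without the litter 3 library labelled mutant) to -0.042 (without the litter 2 library labelled mutant) for Tbx4. The Tbx2 value was also 0.068 without the litter 2 library labelled control and 0.41 without the litter 1 library labelled mutant, and that of Tbx4 was -0.077 without the litter 1 library labelled mutant. Leaving out each library called 0 to 1 gene higher and 0 to 1 lower over the whole table, none of them among the 8. Both single calls arose on leaving out a litter 1 library, the higher one without its control label and the lower one without its mutant label.

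The count of 2 genes lower in every low-Msx1 library became 1 with median-of-ratios scaling (Tbx2 was lost) and 0 when each litter had to pass 0.2, and leaving out each litter gave 2 to 3, the third being Tbx4 without litter 2. Tbx22 remained the 1 gene higher under every alternative run. The limit of 0.2 was applied without rescaling only, and the litter 3 difference of Tbx22 was 0.16 with median-of-ratios scaling. In the authors' deposited table the count of 0 held at an adjusted p of 0.1 and with adjustment over all 17605 genes with a p. Without read counts per library, levels under 1 TPM carry no interval, and the 4 genes there were in no test of the labels except the fit with no filter.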
